A study of Bos taurus with 18 samples.

Results

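Transcripts of heart muscle and of skeletal muscle were compared between 4 of the 18 bovine RNA-seq libraries of the series. The heart-rich library is the first of 3 labelled Holstein-like senescent fibroblasts (cell line Sn-BF-15, culture name BF-15-P9), and the muscle-rich libraries are the 3 labelled as primary cultures of Holstein-like fibroblasts (cell line PBF-15, culture name BEF). They were chosen by their transcripts: heart genes were abundant in the former, and skeletal muscle genes, such as the fast myosin gene MYH1, in the latter. The expression values that follow therefore describe these libraries and carry no test, with 1 library on one side and 3 on the other.

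The study followed fibroblasts of a Holstein-like and a Simmental-like line through long culture, with 3 libraries each from primary, senescent and immortalized stages. No agent, transgene or age is given in the labels for the 4 libraries, and what they share is the Holstein-like origin and the word "Rerun" in their column names. Separate cultures are not stated for the replicates, which the labels only call biological, so an SD here may be technical. Primary and senescent libraries also come from differently named cultures, and the effect of stage and that of culture cannot be told apart. Libraries 2 and 3 of the senescent stage stood apart, with abundant liver transcripts, and are used here only as reference levels.

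Heart and skeletal muscle build their contractile filaments, calcium stores and channels from the same gene families but largely from different members, and slow skeletal fibres share several members with the heart ventricle. Heart muscle works without rest and draws on oxidative phosphorylation, fed mainly by fatty acids, whereas fast skeletal fibres rely more on glycogen and glycolysis. Heart cells are also joined by intercalated discs, secrete natriuretic peptides and are paced by a small conduction system.

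The muscle-rich libraries held 1.46, 1.47 and 1.42 M counts (M for 1e+06) and the heart-rich library 14.1 M. Levels are CPM, counts per 1e+06 counts of a library, and a ratio is the CPM of the heart-rich library over the mean of the muscle-rich libraries. Counting noise accounted for most of the spread among the muscle-rich libraries (chi-square per gene of 1.20 to 1.22, where counting alone gives about 1). Against the other senescent libraries, the same measure for the heart-rich library was 1034 and 1114, and for senescent libraries 2 and 3 against each other it was 197. Where libraries differ, this measure grows with depth. The senescent libraries, at 14.1, 12.9 and 13.3 M counts, are thus not on the same scale as the muscle-rich ones. Intervals in parentheses are exact 95% counting intervals and cover counting error only. They belong to the ratio taken with the muscle-rich counts summed. Where a side had 1 to 3 counts, the fold given is that ratio too, while log2 ratios and swings use the mean. Where a side had 0 counts, the ratio is a bound taken against 3 counts over the group, which is 0.689 CPM for the muscle-rich libraries together and 0.213 CPM for the heart-rich library.

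The label of fibroblasts was not borne out by the markers in any of the 4 libraries. A list of 20 fibroblast and collagen genes took 0.117%, 0.117% and 0.117% of the counts in the muscle-rich libraries and 0.263% in the heart-rich library, against 5.61% to 8.14% across the 9 Simmental-like libraries. Heart markers were plentiful in the heart-rich library and skeletal muscle markers in the muscle-rich libraries, as the choice of these libraries required. In such bulk samples, fewer cells of a type and less RNA per cell cannot be told apart.

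At 20 CPM or more on a side stood 5526 of 24596 genes, called scored here. Of these, 1078 were at least 4-fold higher in the heart-rich library, which is 19.5%, and 409 were at least 4-fold lower, which is 7.4%. The median log2 ratio over scored genes was 0.50. These shares come from the contrast that chose the libraries, so nothing is read from the counts per list beside them, and a gene that reached 20 CPM through its high side alone had to differ. At the edge of the 20 CPM rule, BRPF3 entered at 20.0009 CPM in the muscle-rich libraries and SEC22B stayed out at 19.9997 CPM. At the edge of the 4-fold rule, NFIC was called at 4.0004-fold lower and KANK2 was not at 3.999-fold higher. The share of calls that were higher was 72.5%, and it ran from 54.1% to 83.9% over 4 other ways of scaling the libraries. Those scalings moved the log2 ratio of a typical gene by -0.46 to 0.38, with somewhat larger moves for a few genes of low counts, so genes near 0 have no settled direction.

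**Figure D1:**
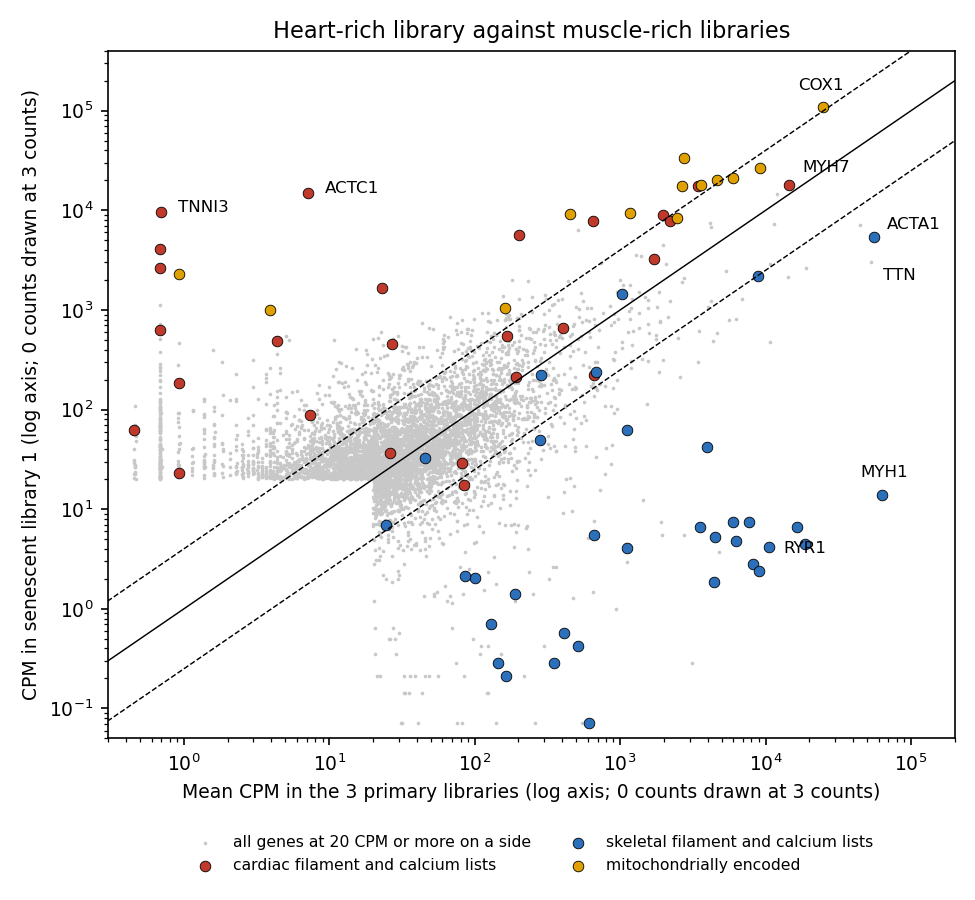
Mean CPM in the 3 muscle-rich libraries (horizontal, log axis) against CPM in the heart-rich library (vertical, log axis) for the 5526 scored genes, with cardiac, skeletal and mitochondrially encoded genes coloured, the line of equality solid and the 4-fold lines dashed. Skeletal genes such as MYH1 and RYR1 lie far to the lower right and cardiac genes such as TNNI3 and ACTC1 far to the upper left.

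The thin filament, the actin strand with its calcium switch, was built from different family members on the 2 sides. The cardiac thin filament genes took 0.421%, 0.413% and 0.412% of the counts in the muscle-rich libraries and 4.54% in the heart-rich library, and in the remaining 14 libraries they took at most 0.147%. TNNI3, the cardiac troponin I that inhibits contraction at rest, stood at 0.685, 0 and 1.40 CPM in the muscle-rich libraries and at 9666 CPM in the heart-rich library. From 3 counts against 136150, the ratio was 14019-fold higher (95% interval 4797 to 67980.2). TNNT2, the cardiac troponin T that ties the troponin complex to tropomyosin, had 0 counts in the muscle-rich libraries and 4098 CPM in the heart-rich library, so it was at least 5944-fold higher. ACTC1, the cardiac alpha-actin, stood at 8.22, 4.77 and 8.42 CPM in the muscle-rich libraries and 14866 CPM in the heart-rich library, 2082-fold higher (95% interval 1469.9 to 3071). For all 3 genes the heart-rich library stood far above every muscle-rich library, as its choice by heart genes required.

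Of the thin filament genes used by the heart, the 2 that slow skeletal fibres also use differed least. TNNC1, the slow and cardiac troponin C, stood at 1982, 1935 and 1963 CPM and 9035 CPM, 4.61-fold higher, and passed 4-fold under 1 of 4 other scalings. TPM1, an alpha-tropomyosin, stood at 2224, 2188 and 2147 CPM and 7765 CPM, 3.55-fold higher. Both were well expressed in every library of the comparison, unlike TNNI3 and TNNT2.

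Skeletal thin filament genes took 9.79%, 9.91% and 9.85% of the counts in the muscle-rich libraries and 0.931% in the heart-rich library. Among them, 0 were at least 4-fold higher and 8 at least 4-fold lower among the 10 scored of 10 measured, with a median log2 ratio of -7.99. The fast troponins TNNI2, TNNT3 and TNNC2 stood at 6304 ± 39.1 CPM (SD, n = 3), 3544 ± 63.8 CPM (SD, n = 3) and 4508 ± 108 CPM (SD, n = 3) in the muscle-rich libraries and at 4.76 CPM, 6.60 CPM and 5.25 CPM in the heart-rich library. NEB, the giant protein nebulin along skeletal thin filaments, stood at 16652, 16276 and 16149 CPM and 6.60 CPM, 2478-fold lower (95% interval 2022 to 3070.5). LMOD3, which caps and seeds skeletal thin filaments, had 1 count in the heart-rich library and stood at 597, 619 and 615 CPM in the muscle-rich libraries, 8598-fold lower (95% interval 1542 to 339737).

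A few skeletal thin filament genes kept a sizeable level in the heart-rich library. ACTA1, the skeletal alpha-actin that heart muscle also makes, stood at 55035, 56680.3 and 56179.9 CPM and 5404 CPM, so the heart-rich library held 9.66% of the muscle-rich level. TPM2, a beta-tropomyosin, stood at 8867, 8857 and 8781 CPM and 2203 CPM, at the edge of the 4-fold rule. TNNT1, the slow troponin T, stood at 697, 642 and 709.7 CPM and 237 CPM. By contrast TNNI1, the slow troponin I, stood at 689, 682 and 597 CPM and 5.47 CPM, 120.1-fold lower. The slow troponin genes TNNT1 and TNNI1 thus lay apart, with 34.7% and 0.833% of the muscle-rich level left.

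The thick filament, which carries the myosin motors, also differed by member. MYH1, a fast myosin heavy chain that drew more counts than any other gene in the muscle-rich libraries, stood at 63348, 62849.8 and 62452 CPM there and at 13.8 CPM in the heart-rich library, 4566-fold lower (95% interval 3967 to 5284). MYH2, another fast heavy chain, stood at 8212, 8156 and 8306 CPM and 2.84 CPM, 2896-fold lower (95% interval 2126 to 4054). Among the skeletal thick filament genes, 0 were at least 4-fold higher and 9 at least 4-fold lower among the 9 scored of 9 measured, with a median log2 ratio of -9.996. Their share of counts was 9.99%, 9.95% and 9.92% in the muscle-rich libraries and 0.00417% in the heart-rich library.

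Several cardiac thick filament genes were higher in the heart-rich library. MYBPC3, the cardiac myosin-binding protein C, had 0 counts in the muscle-rich libraries and 2633 CPM in the heart-rich library, at least 3819-fold higher. MYL7, the atrial regulatory light chain, had 0 counts and 627 CPM, at least 909-fold higher. MYL2 and MYL3, light chains of the ventricle and of slow fibres, were already present in the muscle-rich libraries, at 3409.7 ± 93.6 CPM (SD, n = 3) and 651 ± 24.6 CPM (SD, n = 3), and stood at 17625 CPM and 7751 CPM in the heart-rich library. These are 5.17-fold higher and 11.9-fold higher, of which MYL2 passed 4-fold under 1 of 4 other scalings. MYLK3, the kinase that phosphorylates the cardiac light chain, stood at 8.91, 5.45 and 7.72 CPM and 88.5 CPM, 12.03-fold higher (95% interval 8.48 to 17.7). Among the cardiac thick filament genes, 5 were at least 4-fold higher and 0 at least 4-fold lower among the 7 scored of 9 measured, with a median log2 ratio of 3.57.

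MYH7, the slow and ventricular beta heavy chain, was abundant on both sides, at 14698, 14413 and 14685 CPM and 17985 CPM. Its log2 ratio of 0.30 ran from -0.15 to 0.68 over the other scalings, so its direction depends on the scaling. The table has a further row with the same name (ENSBTAG00000040053), at 817, 678 and 799.6 CPM and 922.5 CPM, and names no row MYH6, the atrial alpha heavy chain, so the alpha and beta chains could not be told apart. MB, the oxygen store myoglobin of heart and slow fibres, was likewise abundant on both sides, at 11804, 12045 and 11961 CPM and 14489.7 CPM, with a log2 ratio that ran from -0.18 to 0.66 over the other scalings.

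**Figure D2:**
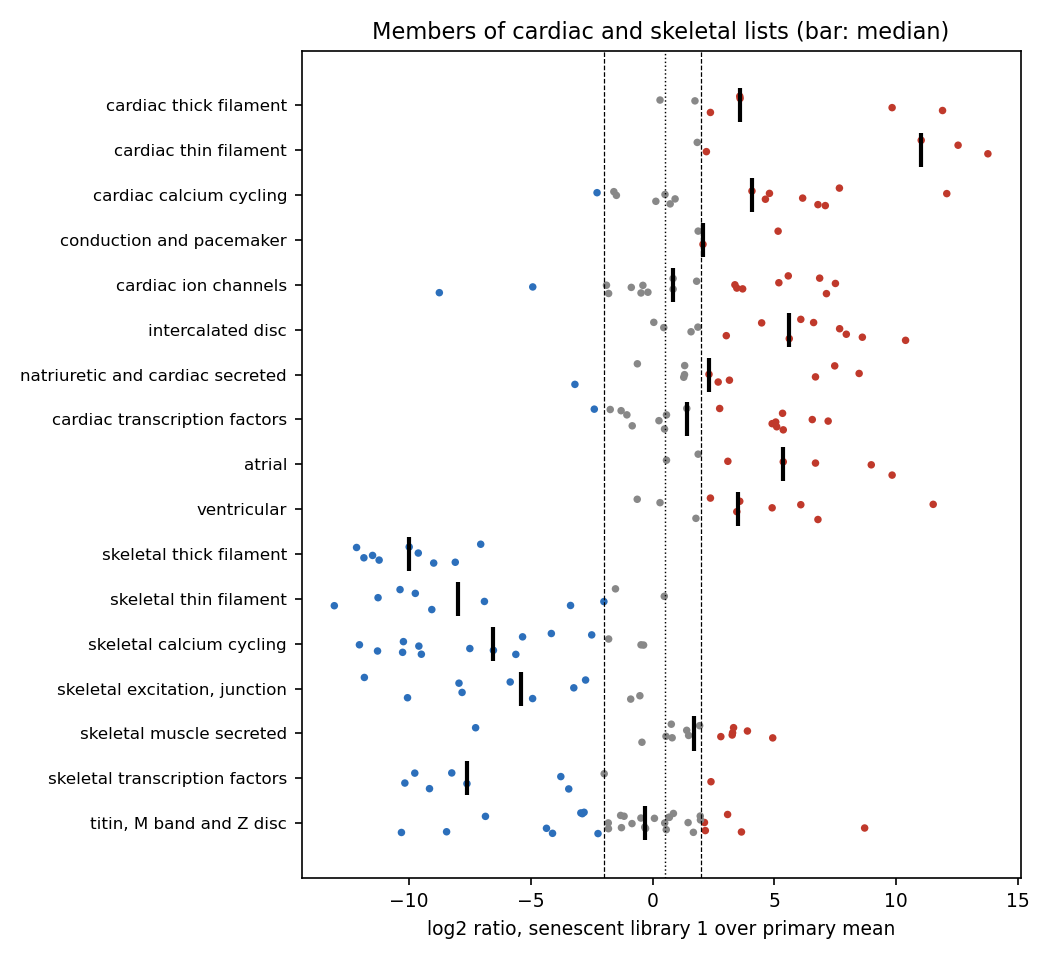
Log2 ratios of the scored members of 17 cardiac and skeletal lists (horizontal axis), with a point per gene, red for at least 4-fold higher and blue for at least 4-fold lower in the heart-rich library, a black bar at the list median and a dotted line at the median of all scored genes. The skeletal filament, calcium, excitation and regulator lists lie at the left, and the skeletal secreted list lies with the cardiac lists at the right.

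Cardiac and skeletal members of a family were set against each other in 27 pairs, because gene scaling cancels in the difference of their log2 ratios, called the swing. In 25 pairs both names were in the table, and in 24 both were scored. The swing was towards the cardiac member in 24 of 24, with a median of 12.16 and a range of 0.07 to 24.13. In 17 pairs the cardiac member was at least 4-fold higher while the skeletal member was at least 4-fold lower. The libraries were chosen by heart and skeletal muscle transcripts, and the pairs with earlier results of these data known. The shared direction therefore describes that choice and is no separate evidence. Troponin I (TNNI3 against TNNI2), myosin-binding protein C (MYBPC3 against MYBPC2) and the ryanodine receptor (RYR2 against RYR1) swung most, by 24.13, at least 23.75 and 23.37. In 7 pairs a member had 3 counts or fewer on its low side, so those swings are bounds or rest on few counts.

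The 3 smallest swings were those of the creatine kinase, junctophilin and ankyrin repeat pairs. The mitochondrial and cytosolic muscle creatine kinases CKMT2 and CKM, which buffer ATP in both muscles, had a swing of 0.07, with CKM at 11285, 11489 and 11342 CPM and 7324 CPM. CKM, the skeletal member of this pair, was also on the ventricular list, so the pair is a weak cardiac and skeletal contrast. The junctophilins JPH2 and JPH1, which hold the cell membrane to the calcium store, were both lower in the heart-rich library, at log2 ratios of -1.49 and -4.16, a swing of 2.67. The stress-linked ankyrin repeat genes ANKRD1 and ANKRD2 were both higher by sign, at 3.64 and 0.66, a swing of 2.99, and ANKRD1 stood at 495, 500.4 and 539.8 CPM and 6399 CPM.

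**Figure D3:**
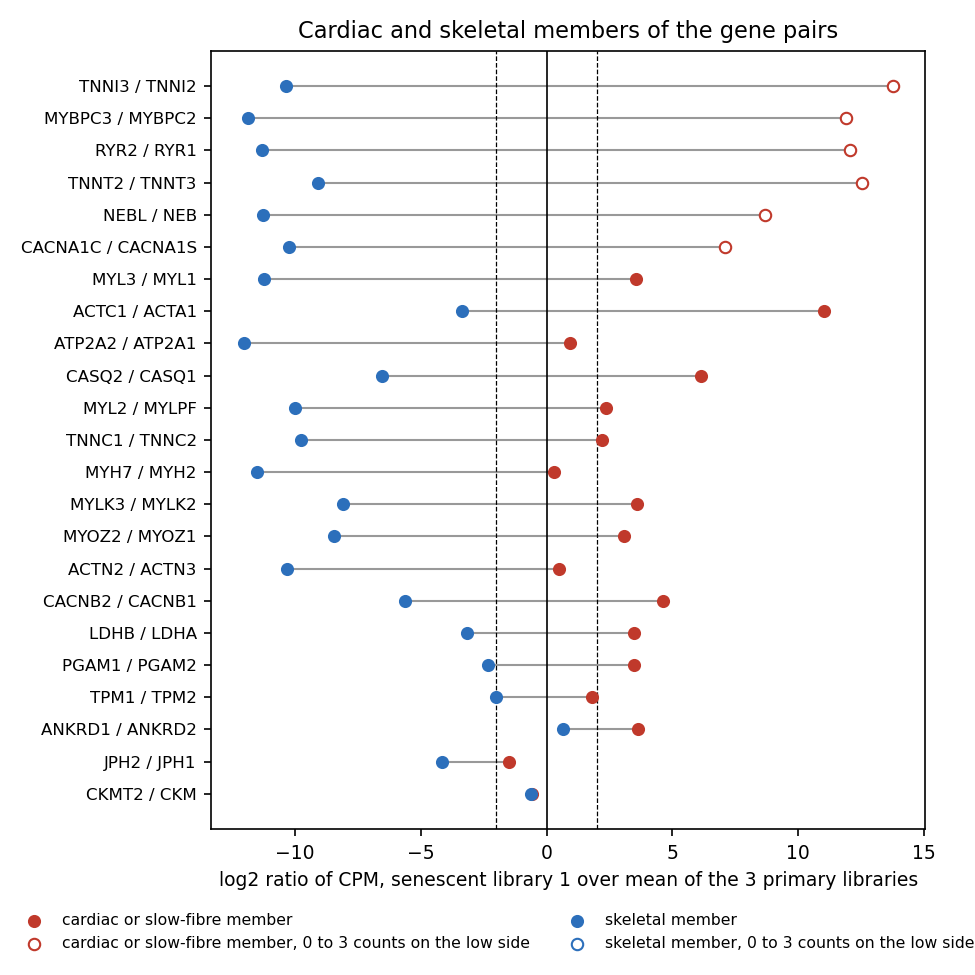
Log2 ratio (horizontal axis) of the cardiac or slow-fibre member (red) and of the skeletal member (blue) of the scored gene pairs other than a pair not reported here, ordered by swing, with open symbols where the low side had 0 to 3 counts and dashed lines at 4-fold. The red point lies right of the blue point in every pair drawn, from a swing of 0.07 for CKMT2 and CKM to 24.13 for TNNI3 and TNNI2.

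Titin and the proteins of the M band and Z disc, which hold the filaments in register, divided by member. Of this list, 5 were at least 4-fold higher and 9 at least 4-fold lower among the 33 scored of 33 measured, with a median log2 ratio of -0.33, and the other scalings gave 3 to 8 higher and 8 to 11 lower. TTN, the spring of the sarcomere, stood at 53565, 52549.9 and 52681 CPM and 3061 CPM, 17.3-fold lower. ACTN3 and MYOZ1, Z-disc proteins of fast fibres, stood at 4792 ± 112 CPM (SD, n = 3) and 1952 ± 40.7 CPM (SD, n = 3) against 3.76 CPM and 5.54 CPM. On the other side, NEBL, the short cardiac relative of nebulin, had 0 counts and 287 CPM, at least 416-fold higher. MYOZ2, the slow and cardiac calsarcin, stood at 262, 223 and 213 CPM and 1959 CPM, 8.43-fold higher. Shared members such as ACTN2, TCAP, DES and LDB3 had log2 ratios of 0.49, 0.85, 0.68 and -0.29, and that of LDB3 changed sign among the scalings.

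Calcium handling genes were likewise divided by member. RYR2, the heart's calcium release channel, had 1 count in the muscle-rich libraries and stood at 979 CPM in the heart-rich library, 4259-fold higher (95% interval 764 to 168227). RYR1, its skeletal counterpart, stood at 10506, 10479.8 and 10609 CPM and 4.19 CPM, 2514-fold lower (95% interval 1949 to 3303). The calcium pump gene of fast fibres, ATP2A1, stood at 18709.5, 18831 and 18933 CPM and 4.47 CPM, 4209-fold lower (95% interval 3289 to 5477), whereas ATP2A2, the pump of heart and slow fibres, was present on both sides at 1751, 1714 and 1664 CPM and 3234 CPM. PLN, the brake on that pump, stood at 212, 193 and 202 CPM and 5615 CPM, 27.7-fold higher (95% interval 25.9 to 29.7).

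CASQ2 and CASQ1, the calcium-binding proteins of the cardiac and skeletal stores, crossed in the same way. CASQ2 stood at 21.9, 23.2 and 24.6 CPM and 1657 CPM, 71.3-fold higher (95% interval 58.7 to 87.7), and CASQ1 was 92.98-fold lower (95% interval 85.7 to 101). The voltage sensor of skeletal muscle, CACNA1S, stood at 511, 517 and 510.4 CPM and 0.426 CPM, 1204-fold lower (95% interval 552 to 3284), and its partners STAC3, JSRP1 and CACNG1 were 723-fold lower, 1232-fold lower and at least 776-fold lower. CACNA1C, the pore of the cardiac L-type channel, had 2 counts against 872, 135-fold higher (95% interval 37.2 to 1114). SLC8A1, the exchanger that removes calcium from heart cells, stood at 2.06, 0 and 0.702 CPM and 187 CPM, 203-fold higher (95% interval 79.2 to 745).

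Among cardiac calcium genes, 8 were at least 4-fold higher and 1 at least 4-fold lower among the 15 scored of 15 measured, with a median log2 ratio of 4.07, and among skeletal ones 0 were at least 4-fold higher and 12 at least 4-fold lower among the 15 scored of 18 measured, with a median log2 ratio of -6.54. The exception in the cardiac list was CACNA2D1, an auxiliary channel subunit that skeletal muscle also uses, at 78.1, 87.3 and 89.9 CPM and 17.5 CPM. TECRL and S100A1, which act in cardiac calcium release and uptake, were 110.2-fold higher (95% interval 70.8 to 184) and 16.9-fold higher (95% interval 14.1 to 20.4). The share of counts in the cardiac list was 0.346%, 0.342% and 0.339% and 1.39%, and in the skeletal list 3.67%, 3.67% and 3.71% and 0.0431%.

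Several channels of working heart muscle were higher in the heart-rich library, and channels of skeletal excitation were lower. The skeletal sodium channel gene SCN4A stood at 239, 260.4 and 279 CPM and had 1 count in the heart-rich library, 3655-fold lower (95% interval 655 to 144487), and CLCN1, the skeletal chloride channel, likewise had 1 count, 1072-fold lower (95% interval 191 to 42449.8). KCNH2 and KCNE1, subunits of the delayed rectifier currents that end the heartbeat, stood at 64.9 CPM and 125 CPM, 141-fold higher (95% interval 38.97 to 1167) and at least 181-fold higher. KCNJ8, the pore of an ATP-sensitive potassium channel, and POPDC2, a cyclic AMP binding protein of the heart, were 36.2-fold higher and 10.4-fold higher.

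Of the cardiac ion channel list, 8 were at least 4-fold higher and 2 at least 4-fold lower among the 19 scored of 35 measured, with a median log2 ratio of 0.84. The list as a whole took 0.192%, 0.204% and 0.199% of counts in the muscle-rich libraries and 0.180% in the heart-rich library, so its summed share was slightly lower there. SCN4B and KCNJ12, a sodium channel and a potassium channel subunit, were the 2 lower members, at 646 ± 37.4 CPM (SD, n = 3) and 79.7 ± 4.6 CPM (SD, n = 3) against 1.49 CPM and 2.63 CPM. ADRB1, the main beta-adrenergic receptor of the heart, had 0 counts and 32.7 CPM. CHRM2, the receptor of the vagus nerve, stood below 20 CPM, at 0 counts and 6.74 CPM. Of the skeletal excitation and neuromuscular junction genes, 0 were at least 4-fold higher and 8 at least 4-fold lower among the 10 scored of 20 measured, with a median log2 ratio of -5.39, and the receptor subunit gene CHRNA1 stood at 32.9, 36.8 and 35.8 CPM and had 2 counts in the heart-rich library.

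Several genes that define pacemaker and conduction cells were not detected. HCN4, a channel of the pacemaker current, ISL1, a regulator of the sinus node, and CNTN2, a marker of Purkinje fibres, had 0 counts in all 4 libraries, which allows up to 0.213 CPM in the heart-rich library. TBX3 and SHOX2, regulators of the node, stood at 7.10 CPM and 0.213 CPM in the heart-rich library. Of the conduction list, only 3 of 18 measured genes were scored: CACNA1H, a T-type calcium channel, at 5.48, 5.45 and 2.11 CPM and 154 CPM, 35.5-fold higher (95% interval 22.6 to 58.8), HCN2 at 12.3, 6.14 and 9.13 CPM and 38.5 CPM, 4.18-fold higher (95% interval 3.03 to 5.93), and GJA5, the gap junction gene of atria and fast conduction, at 4.11, 5.45 and 9.83 CPM and 23.6 CPM, 3.65-fold higher. HCN2 passed 4-fold under 1 of 4 other scalings.

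Intercalated disc genes, which couple heart cells mechanically and electrically, were mostly higher in the heart-rich library than in the muscle-rich libraries. Of this list, 9 were at least 4-fold higher and 0 at least 4-fold lower among the 13 scored of 14 measured, with a median log2 ratio of 5.61. GJA1, the main gap junction protein of the working heart, stood at 3.43, 5.45 and 2.81 CPM and 264 CPM, 67.7-fold higher (95% interval 42.1 to 116). CDH2, the adhesion protein N-cadherin, had 1 count against 4291, 1326-fold higher (95% interval 238 to 52366). The desmosome genes DSP and PKP2 stood at 0.685, 3.41 and 0.702 CPM and 0 counts in the muscle-rich libraries and at 395 CPM and 269 CPM, 247-fold higher (95% interval 119 to 611) and at least 389.9-fold higher. Adhesion genes of wider use differed less, with CTNNB1 and VCL at log2 ratios of 0.45 and 0.05, the latter of no settled sign among the scalings. The list took 0.0523%, 0.0553% and 0.0549% of counts in the muscle-rich libraries and 0.228% in the heart-rich library, beside 0.221% in Holstein-like immortalized library 2 and 0.117% to 0.256% in the Simmental-like libraries. DSP also stood at 247 and 357 CPM in the liver-rich senescent libraries 2 and 3, so these levels are not particular to the heart-rich library.

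Secreted cardiac products were present in the heart-rich library at modest levels. NPPA and NPPB, the atrial and B-type natriuretic peptides that lower blood volume, had 0 counts in all 3 muscle-rich libraries and stood at 70.9 CPM and 122 CPM, at least 103-fold higher and at least 178-fold higher. CORIN, the protease that activates the atrial peptide, stood just below the scored level, at 0 counts and 19.1 CPM. BMP10, an atrial growth factor, had 1 count in the heart-rich library. POSTN, a matrix protein of cardiac fibroblasts and valves, had 0 counts and 245 CPM, at least 356-fold higher.

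Of the natriuretic and cardiac secreted list, 6 were at least 4-fold higher and 1 at least 4-fold lower among the 11 scored of 30 measured, with a median log2 ratio of 2.31. It took 0.0241%, 0.0245% and 0.0234% of counts in the muscle-rich libraries and 0.0921% in the heart-rich library, against 0.261% and 0.311% in the liver-rich senescent libraries 2 and 3. The Wnt inhibitors FRZB and SFRP1 went opposite ways, FRZB at 35.6, 32.7 and 40.7 CPM and 3.98 CPM and SFRP1 at 6.17, 3.41 and 2.81 CPM and 36.6 CPM. The lower member was thus FRZB, by 9.14-fold. VEGFB, a vessel growth factor, stood at 12.3, 10.9 and 9.13 CPM and 53.5 CPM.

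The genes listed as secreted by skeletal muscle were, unlike the skeletal filament genes, higher by median. Among them, 6 were at least 4-fold higher and 1 at least 4-fold lower among the 14 scored of 25 measured, with a median log2 ratio of 1.70. MSTN, the brake on skeletal muscle growth, was the lower member, at 30.8, 35.4 and 32.3 CPM and 0 counts, at least 154-fold lower. The higher members FSTL3, BGN, IGFBP4 and ANGPTL4, an activin inhibitor, a matrix proteoglycan, a growth factor carrier and a lipase inhibitor, were 30.4-fold higher, 14.8-fold higher, 9.99-fold higher and 9.71-fold higher. Several of these genes are made by connective tissue or liver as well, and in the liver-rich senescent libraries 2 and 3 the whole list took 0.380% and 0.545% of counts against 0.187% in the heart-rich library. The part of liver transcripts in these secreted results was not tested.

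Core regulators of the cardiac lineage were detected in the heart-rich library and not in the muscle-rich libraries. GATA4, NKX2-5, TBX5, HAND2 and GATA6, transcription factors that build the heart, had 0 counts in every muscle-rich library and stood at 102 CPM, 64.7 CPM, 28.3 CPM, 27.8 CPM and 22.9 CPM. The bounds run from at least 147-fold higher for GATA4 to at least 33.2-fold higher for GATA6. GATA4 also stood at 32.4 and 27.5 CPM in the liver-rich senescent libraries 2 and 3. PPARGC1A, a coactivator that drives mitochondrial genes, stood at 13.7, 14.998 and 23.9 CPM and 118 CPM, 6.73-fold higher (95% interval 5.36 to 8.61). MEF2C, used by both muscles, was lower, at 39.1, 32.7 and 39.3 CPM and 7.03 CPM. Of the cardiac transcription factor list, 8 were at least 4-fold higher and 1 at least 4-fold lower among the 17 scored of 31 measured, with a median log2 ratio of 1.40, and 12 of the 31 had 0 counts in the muscle-rich libraries.

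Several regulators of skeletal muscle were lower in the heart-rich library, and their list took 0.0581%, 0.0562% and 0.0602% of counts in the muscle-rich libraries and 0.0161% in the heart-rich library. MYF6 and MYOD1, factors that specify and maintain skeletal fibres, stood at 89.1, 79.1 and 77.9 CPM and 42.5, 38.2 and 41.4 CPM in the muscle-rich libraries and had 1 count each in the heart-rich library, 1156-fold lower (95% interval 206 to 45774) and 573-fold lower (95% interval 102 to 22758). MYOG, which drives fibre differentiation, stood below 20 CPM, at 16.4, 15.7 and 21.1 CPM and 0 counts. TBX15, a regulator of fast fibres, stood at 127, 119 and 126 CPM and had 2 counts. SOX6 and EYA4, further regulators of fibre type, were 13.7-fold lower and 10.9-fold lower, and TEAD4, a partner of muscle coactivators, was not called, at a log2 ratio of -1.99. Of this list, 1 was at least 4-fold higher and 7 at least 4-fold lower among the 9 scored of 22 measured, with a median log2 ratio of -7.63, and the higher member was CSRP1, a cytoskeletal protein also made in smooth muscle, at 28.1, 27.3 and 25.97 CPM and 142 CPM.

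Atrial and ventricular markers were present side by side. Of the atrial list, 5 were at least 4-fold higher and 0 at least 4-fold lower among the 7 scored of 18 measured, with a median log2 ratio of 5.36, and of the ventricular list, 7 were at least 4-fold higher and 0 at least 4-fold lower among the 10 scored of 15 measured, with a median log2 ratio of 3.51. Besides MYL7 and NPPA, the atrial list was led by DKK3, a secreted protein of the atria, at 0.685, 0 and 2.11 CPM and 468 CPM, 503-fold higher (95% interval 199 to 1867), while the atrial light chain MYL4 stood at only 19.8 CPM and KCNJ3, a channel of the vagal response, at 4.26 CPM. The ventricular list was led by FHL2, with 1 count against 9371, 2895-fold higher (95% interval 519 to 114347). Neither DKK3 nor FHL2 was particular to the heart-rich library. In the Simmental-like libraries they stood at 70.2 to 162 CPM and 224 to 414 CPM. The ventricular light chain MYL2 and regulator IRX4 stood at 17625 CPM and 12.5 CPM in the heart-rich library, and IRX4 was not scored. The labels do not name a chamber.

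Mitochondrially encoded genes, the 13 subunits of the respiratory chain made inside the organelle, took a larger share of counts in the heart-rich library. Their share was 5.73%, 5.82% and 5.82% in the muscle-rich libraries, a mean of 5.79% ± 0.05 (SD, n = 3), and 27.7% in the heart-rich library, 4.79 times as much. The heart-rich library stood highest of all 18 libraries, followed by Holstein-like immortalized library 2 at 18.02% and Simmental-like primary library 1 at 9.92%.

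COX1, the catalytic subunit of cytochrome oxidase, stood at 24212, 25258 and 25271 CPM and 108611 CPM, 4.36-fold higher (95% interval 4.33 to 4.39), and passed 4-fold under 1 of 4 other scalings. All 13 genes were higher by sign, also under the other scalings, and 10 were at least 4-fold higher, with a median log2 ratio of 2.69. The ratios were unequal: COX3 and MT-CYB were 2.96-fold higher and 3.53-fold higher, while the ATP synthase subunit gene ATP6 was 12.1-fold higher. The 3 short genes MT-ATP8, MT-ND4L and MT-ND3 differed most, 2489-fold higher (95% interval 983 to 9234), 255-fold higher (95% interval 159.5 to 439) and 20.2-fold higher, from 0, 0.682 and 2.11 CPM, 6.17, 0.682 and 4.91 CPM and 450.1, 472 and 440.2 CPM in the muscle-rich libraries. MT-ATP8 stood at 387 and 247 CPM in senescent libraries 2 and 3 and at 372.5 to 1679 CPM in the Simmental-like libraries. Whether short genes were counted less well in the muscle-rich libraries was not tested.

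Among other abundant features, those with the identifiers ENSBTAG00000043570 and ENSBTAG00000043567, to which the file gives no gene name, went the opposite way, at 44763, 44774 and 44826 CPM and 19247, 18864 and 19114 CPM in the muscle-rich libraries and 7096 CPM and 2617 CPM in the heart-rich library. They were 6.31-fold lower and 7.29-fold lower. Their identifiers lie between those of the 13 subunit genes, and the mitochondrially encoded shares above leave both out. With both counted in, the share in the heart-rich library would exceed that of the muscle-rich libraries by clearly less than 4.79 times. What they encode is not given. Within the 13 subunit genes, COX1 made up 43.04% of the counts in the muscle-rich libraries and 39.2% in the heart-rich library.

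**Figure D4:**
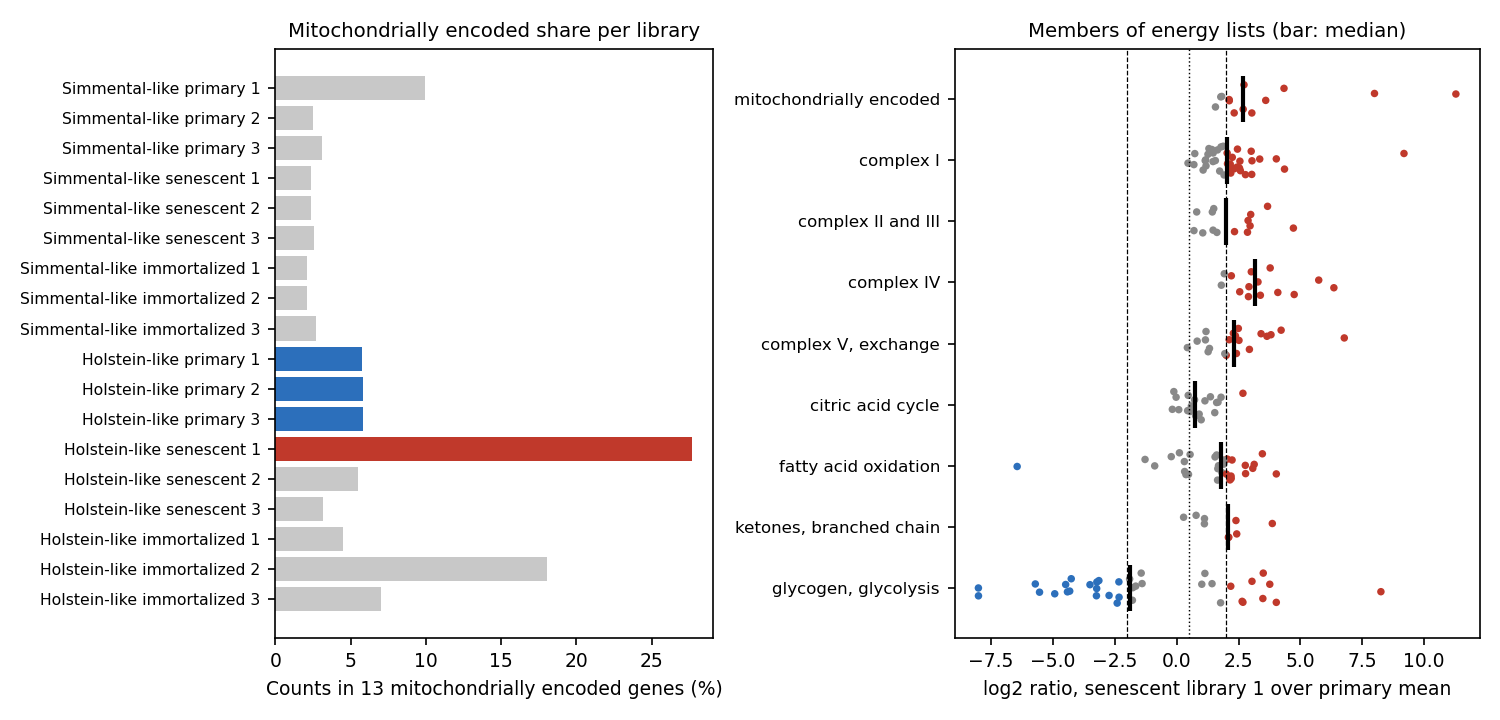
Left, percent of counts in the 13 mitochondrially encoded genes in each of the 18 libraries, with the muscle-rich libraries in blue and the heart-rich library in red. Right, log2 ratios of the scored members of 9 energy lists, with red for at least 4-fold higher, blue for at least 4-fold lower, a black bar at the list median and a dotted line at the median of all scored genes.

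Nuclear genes of the respiratory chain were higher as well. They took 1.05%, 1.06% and 1.05% of the counts in the muscle-rich libraries, and 4.32% in the heart-rich library. All 82 scored members were higher by sign, under the other scalings too, and 52 were at least 4-fold higher, or 37 to 61 under the other scalings. Over all scored genes, 3427 of 5526 were higher by sign and 19.5% were at least 4-fold higher. By list, which for complex V also holds nucleotide exchange genes outside those 82, 20 of 38 scored genes of complex I, 7 of 14 of complexes II and III, 12 of 14 of complex IV and 13 of 20 of complex V and nucleotide exchange were at least 4-fold higher. In that last list, 19 to 20 of 20 were higher by sign under the other scalings. For these lists in order, the other scalings gave 12 to 25, 6 to 8, 11 to 14 and 8 to 14 at least 4-fold higher.

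The scored members with the largest ratios were NDUFB1, ATP5I and COX7C. NDUFB1 of complex I had 1 count against 1862, 575-fold higher (95% interval 103 to 22730.2). ATP5I of the ATP synthase stood at 2.74, 6.14 and 6.32 CPM and 553 CPM, 109-fold higher (95% interval 72.2 to 175), and COX7C of cytochrome oxidase at 2.74, 4.09 and 6.32 CPM and 358 CPM, 81.6-fold higher (95% interval 52.4 to 136). The heart and muscle forms COX7A1, COX6A2 and COX8B were 26.9-fold higher, 7.46-fold higher and 16.98-fold higher. SDHA, the catalytic subunit of complex II, stood at 545, 515 and 561 CPM and 1496 CPM, and ATP5B, a catalytic subunit of the ATP synthase, at 1391, 1351 and 1415 CPM and 3469.6 CPM. In a split added after the data were seen, the 7 core subunits of complex I had a median log2 ratio of 1.15 and the 31 accessory subunits 2.18. Transcript lengths were not available, so an effect of length on the ratios of small subunits was not tested.

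Genes of the cytosolic ribosome, which takes no part in respiration, were read beside them. Of these, 13 were at least 4-fold higher and 0 at least 4-fold lower among the 56 scored of 60 measured, with a median log2 ratio of 1.19, and the other scalings gave 9 to 17 higher and 0 lower. The shares over all scored genes were 19.5% higher and 7.4% lower. Their median thus also lay above that of all scored genes.

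Several genes of fatty acid use were higher in the heart-rich library. CD36 and LPL, which bring fatty acids into heart cells, stood at 156, 147 and 166 CPM and 114, 111 and 111 CPM in the muscle-rich libraries and 1368 CPM and 942 CPM in the heart-rich library, 8.76-fold higher and 8.42-fold higher. FABP3, the heart's fatty acid binding protein, stood at 168, 184 and 176 CPM and 806 CPM, and CPT2, which readies fatty acids inside mitochondria, at 10.3, 12.3 and 9.13 CPM and 116 CPM. Of the fatty acid list, 12 were at least 4-fold higher and 1 at least 4-fold lower among the 32 scored of 34 measured, with a median log2 ratio of 1.77, and the other scalings gave 6 to 20 higher and 1 lower. UCP3, an uncoupling protein of skeletal muscle, was its lower member, at 644, 668 and 678 CPM and 7.60 CPM, while its relative UCP2 was 16.3-fold higher.

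Genes of the citric acid cycle had a median log2 ratio of 0.74, beside 0.50 for all scored genes. Of this list, 1 was at least 4-fold higher and 0 at least 4-fold lower among the 20 scored of 21 measured. The shares over all scored genes were 19.5% and 7.4%. The higher member was the cytosolic malate dehydrogenase MDH1, at 198, 196 and 208 CPM and 1284 CPM. CS, the citrate synthase often read as a gauge of mitochondrial content, stood at 486, 457 and 477 CPM and 690.4 CPM, a log2 ratio of 0.54 near that of all scored genes. Of the ketone and branched-chain list, 5 were at least 4-fold higher and 0 at least 4-fold lower among the 9 scored of 13 measured, with a median log2 ratio of 2.09, led by PPM1K, a phosphatase of branched-chain breakdown, which was 14.5-fold higher (95% interval 11.2 to 19.3).

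Several skeletal forms of glycogen and glycolysis enzymes were lower, and several forms used by heart and other tissues were higher. Of this list, 9 were at least 4-fold higher and 18 at least 4-fold lower among the 37 scored of 40 measured, with a median log2 ratio of -1.90, and the other scalings gave 8 to 10 higher and 16 to 22 lower. PYGM, the muscle glycogen phosphorylase, stood at 10784, 10776 and 10532 CPM and 477 CPM, 22.4-fold lower (95% interval 21.9 to 23.03), while PYGB, the brain form that heart also makes, stood at 0.685, 1.36 and 0.702 CPM and 279 CPM, 305-fold higher (95% interval 119 to 1116). LDHA, the lactate-forming subunit, stood at 4399, 4265 and 4298 CPM and 488 CPM, 8.85-fold lower (95% interval 8.61 to 9.10), and LDHB, the heart subunit, at 176, 194 and 172 CPM and 2016 CPM, 11.2-fold higher (95% interval 10.4 to 11.99).

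The same crossing was seen for hexokinase and phosphoglycerate mutase. HK2, the insulin-regulated hexokinase of skeletal muscle, stood at 115, 100.2 and 115 CPM and 0.426 CPM, 259-fold lower (95% interval 118 to 708), whereas HK1 was 13.6-fold higher (95% interval 10.8 to 17.3). PGAM2, the muscle mutase, was 5.05-fold lower and PGAM1 11.3-fold higher. PFKFB3, which speeds glycolysis, stood at 1962, 1946 and 1865 CPM and 7.45 CPM, and SLC16A3, the lactate exporter of fast fibres, at 119, 117 and 133 CPM and 2.34 CPM. The whole list took 6.91%, 6.94% and 6.93% of the counts in the muscle-rich libraries and 1.49% in the heart-rich library.

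Liver transcripts were present in the heart-rich library and almost none in the muscle-rich libraries. The 15 liver genes took 0.491% of its counts, against at most 0.000206% in a muscle-rich library and 20.6% and 20.6% in senescent libraries 2 and 3. ALB, the serum albumin gene, stood at 0, 0.682 and 0 CPM in the muscle-rich libraries, 963 CPM in the heart-rich library, and 81265 and 36362 CPM in senescent libraries 2 and 3. Across the 15 genes, the level in the heart-rich library was a median 1.86% of that in senescent library 2 (range 0.762% to 71.1%) and 2.58% of that in senescent library 3 (range 0.811% to 5.88%). The upper end of the first range was HP, the haemoglobin scavenger haptoglobin, at 559.7 CPM beside 787 and 21042 CPM.

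Of the 1078 genes at least 4-fold higher in the heart-rich library, 111 (10.3%) were in turn at least 10-fold higher in the mean of senescent libraries 2 and 3, and 967 remained without them. By the same rule, 5378 of all 5526 scored genes remained, and 398 of the 409 lower genes. In senescent libraries 2 and 3 the cardiac thin filament genes took 0.000844% and 0.00122% of counts. How liver transcripts came into the heart-rich library was not tested.

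**Figure D5:**
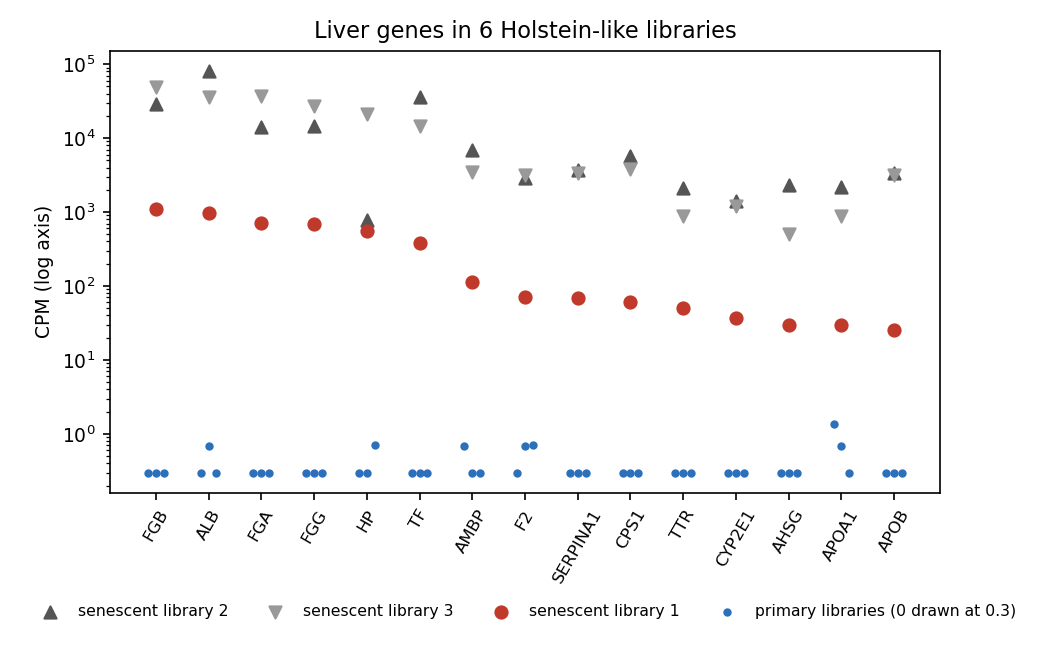
CPM (log axis) of 15 liver genes in the heart-rich library (senescent library 1, red), the liver-rich senescent libraries 2 and 3 (grey triangles) and the 3 muscle-rich primary libraries (blue, with 0 drawn at 0.3 CPM). The heart-rich library lies between the muscle-rich and liver-rich libraries for all 15 genes.

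Markers of the other cell types of a heart or muscle took small shares of counts on both sides, and several were higher in the heart-rich library. Leukocyte genes took 0.0134%, 0.0120% and 0.0117% and 0.0786% of counts, and the macrophage complement genes C1QA, C1QB and C1QC stood at 40.04 CPM, 37.6 CPM and 40.2 CPM, 15.9-fold higher, 41.2-fold higher and 21.7-fold higher. Endothelial genes took 0.0249%, 0.0228% and 0.0240% and 0.113%, with VWF, the clotting factor of vessel walls, at 65.1, 56.6 and 62.5 CPM and 555 CPM. In the liver-rich senescent libraries 2 and 3 the leukocyte list took 0.0978% and 0.159%. Smooth muscle genes had 4 of 9 scored members at least 4-fold higher, and the other scalings gave 1 to 4 higher. The share over all scored genes was 19.5%. ACTA2 stood at 47.3, 34.1 and 35.1 CPM and 158 CPM, and passed 4-fold under 1 of 4 other scalings. Red blood cell, kidney, lung, epicardium and dividing-cell lists had 0 scored members. The part of these cell types in the results above was not tested.

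Of the growth arrest genes that the study's theme concerns, few were expressed. CDKN1A, an inhibitor of the cell cycle, stood at 27.4, 27.9 and 28.1 CPM and 51.2 CPM. CDKN2A and CDKN2B, inhibitors used as senescence markers, had 0 counts in the muscle-rich libraries and stood at 0.142 CPM and 1.63 CPM in the heart-rich library. The telomerase gene TERT and the cytokine gene IL6 had 0 counts in all 4 libraries. MKI67, a proliferation marker, stood at 0.685, 1.36 and 2.11 CPM and 0.426 CPM, and MYC, a growth regulator, at 12.3, 12.3 and 15.4 CPM and 6.89 CPM.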

How the data were processed

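RNA was extracted with RNeasy kits, made into libraries with NEBNext Ultra II kits and sequenced with a NextSeq single-read kit, per the labels' protocols. The authors deposited a merged table of expected counts per gene made with salmon, as its file name says, and the genome build was UMD3.1, per the submitters' processing notes. Not given in the sources used here are salmon's version, the release of the annotation and whether strand was used. Expected counts were rounded to whole numbers. Of the 24596 genes, 4628 carry no name. CPM and ratios were computed with Python 3.11.15, pandas 2.3.3 and scipy 1.17.1, and scaling factors with edgeR 4.0.16 in R 4.3.3. No test was made, since 1 library stands on one side. Counts were read without a known strand, so overlapping and near-identical genes could share reads.

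The members and gene lists were chosen with earlier results of these data known: 41 lists of 697 symbols (661 found) and 27 pairs. Names of mitochondrial genes in the table, the complex I split, the ribosome list, the removal of liver-rich genes and the centring on the median gene were added after the data were seen. Where several rows share a name, the row with the most counts was used. Named genes are the markers and pairs, the 8 genes of highest CPM per side, the 12 with the largest ratio in each direction, up to 4 called members per list, the growth arrest genes and a set of heart and muscle genes. Further list members were named for their role after their values were seen, and a few genes are not reported here by name. The ratios were tested on simulated data. Alternatives were other scalings, minimums, folds, a pseudocount, summed or thinned libraries and leaving out each muscle-rich library.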

Additional observations from a re-analysis of the deposited data

Results flagged for a closer look

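Some of the cardiac regulators and peptides of the heart-rich library also appeared in libraries that the comparison does not use, above the level in the muscle-rich libraries. The highest outside value of GATA4, a factor of heart and of other tissues, was 54.6 CPM in Simmental-like immortalized library 1, against 102 CPM in the heart-rich library. In the liver-rich senescent libraries 2 and 3 GATA4 stood at 32.4 and 27.5 CPM. HAND2, a factor of heart, limb and other tissues, reached 76.5 CPM in Simmental-like primary library 1, above its 27.8 CPM in the heart-rich library. NKX2-5 reached 21.3 CPM and TBX5 10.5 CPM, both in Simmental-like immortalized library 3, against 64.7 CPM and 28.3 CPM. NPPB reached 2.27 CPM in Simmental-like senescent library 1, against 122 CPM. NPPA reached at most 0.0515 CPM in a Simmental-like library, and it had 0 counts in the other Holstein-like libraries.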

How the results depend on the processing

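No paired analysis was possible because 1 library stands on one side and the labels tie no primary library to it. Scaling set how the calls divided: 72.5% of calls were higher with column totals, 56.2% with TMM scaling (721 higher, 561 lower), 54.2% with median-of-ratios scaling (689 and 582), 54.1% with upper quartile scaling (688 and 584) and 83.9% with totals without mitochondrially encoded genes (1640 and 315). The median log2 ratio of scored genes under these was -0.08, -0.13, -0.14 and 0.96, against 0.50. Without mitochondrially encoded genes and relative to the median gene, an alternative chosen after seeing the data, 853 were higher and 647 lower.

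By their construction, the minimum level and the fold moved the counts: 587 higher and 318 lower at 50 CPM, 2789 and 1808 with no minimum, 2062 and 951 at 2-fold, and 572 and 206 at 8-fold. The minimum of 10 CPM, a pseudocount, summing, thinning and leaving out liver-rich genes kept both counts within 1.5 times the main counts. Without a muscle-rich library in turn, there were 1069 to 1087 higher and 406 to 413 lower genes, and all 24 swings stayed positive.

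Over 40 lists, medians shifted by -1.99 to 1.13 with TMM scaling, -2.03 to 1.09 with median-of-ratios scaling, -2.03 to 1.08 with upper quartile scaling, -0.19 to 2.73 with totals without mitochondrially encoded genes, -1.14 to 2.35 with 1 CPM added, -0.22 to 3.33 with thinning and -0.31 to 0.02 with summing. The medians that changed sign were those of the titin list (0.0556) and the adipocyte list (1.0552) with totals without mitochondrially encoded genes, and the median log2 ratio of list satellite cell with median-of-ratios (-0.0078) and upper quartile scaling (-0.0172). The cause was not tested. Depth limits the muscle-rich side, where 3 counts over the group equal 0.689 CPM.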

Other observations

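Some genes outside the lists also had very large ratios, and were picked after their values were seen. IGFN1, an immunoglobulin-domain protein of skeletal muscle, stood at 3138, 3065 and 3209 CPM in the muscle-rich libraries and 0.284 CPM in the heart-rich library, 11047-fold lower (95% interval 4313 to 40542). SLC7A8, an amino acid transporter, stood at 166, 132 and 123 CPM and had 1 count in the heart-rich library, 1975-fold lower (95% interval 353 to 78124). In the other direction, CLGN, a chaperone best known from the testis, had 0 counts and 515 CPM, at least 748-fold higher, against 0.0775 and 0.0750 CPM in the liver-rich senescent libraries 2 and 3. PACSIN1, an endocytosis protein best known from neurons, had 1 count against 2447, 756-fold higher (95% interval 136 to 29868). IFI6, an interferon-induced gene, stood at 0.685, 0.682 and 0.702 CPM and 259.8 CPM, 377-fold higher (95% interval 129 to 1828). In senescent libraries 2 and 3 IFI6 stood at 41.1 and 613 CPM, so its level was not particular to the heart-rich library.

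Purine and phosphagen genes divided between the libraries. AMPD1, the skeletal AMP deaminase, stood at 312, 291 and 289 CPM and 0.426 CPM, 698-fold lower (95% interval 319.9 to 1906), and ADSSL1, the muscle enzyme of the same cycle, was 8.87-fold lower. AK1, an adenylate kinase, was 4.81-fold lower. GATM, the first enzyme of creatine synthesis, stood at 8.91, 10.2 and 9.83 CPM and 70.1 CPM, 7.27-fold higher (95% interval 5.34 to 10.1), and at 2685 and 2089 CPM in senescent libraries 2 and 3. Of this list, 1 was at least 4-fold higher and 4 at least 4-fold lower among the 12 scored of 15 measured, with a median log2 ratio of -0.92. S100B, a calcium-binding protein listed with nerve markers, stood at 35.6, 32.7 and 25.97 CPM and 255 CPM, while the Schwann cell gene SOX10 stood at 3.05 CPM in the heart-rich library.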
